A study of Mus musculus with 18 samples.

Results

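The genes described here are the ligands and receptors of axon guidance, selected by a rule on gene symbols. They comprise the semaphorins of classes 3 to 7, plexins, neuropilins, Eph receptors, ephrins, Slits, Robos, netrins and Unc5 receptors, and 68 of the 56691 deposited genes matched. Primary mouse BMSCs, the adherent stromal cells of bone and marrow, were cultured for 4 days in culture medium (CM), osteogenic induction medium (OI) or adipogenic induction medium (AI), each without (CM, OI, AI) or with 20 ng/ml FGF9 (CM_F9, OI_F9, AI_F9). FGF9 is a secreted fibroblast growth factor. There were 6 groups of 3 samples, and poly(A) RNA was sequenced. All cells were wild type, were isolated from collagenase-digested compact bone and were grown as bulk cultures, and the mutant line of the study was kept on a C57BL/6 background, while the strain, the sex and the mice behind these cultures are not stated. The additions in OI are ascorbate-2-phosphate, beta-glycerol phosphate and dexamethasone. AI adds dexamethasone, rosiglitazone, 3-isobutyl-1-methylxanthine and insulin, so that a difference between AI and CM cannot be assigned to any one of these agents. The study speaks of 3 independent RNA-seq analyses and of biological replicates. Neither it nor the labels say whether the replicates came from separate animals or cultures. A p value therefore covers only the spread among samples, and how far that includes differences between animals is not known.

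Axon guidance molecules are cell surface and secreted proteins that steer growing axons and migrating cells by attraction or repulsion. Semaphorins bind plexins, and the secreted class 3 forms mostly need a neuropilin as co-receptor. Ephrins and Eph receptors are both anchored in the membrane and signal in both directions between touching cells, Slits bind Robos, and netrins bind Dcc, neogenin and Unc5 receptors. In bone, several of these pairs are known from exchanges between osteoblasts, osteoclasts, nerves and vessels, among them ephrin-B2 with EphB4, semaphorin 4D with plexin-B1, and semaphorin 3A with neuropilin-1.

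The libraries held 16719561 to 20526502 counted reads (median 18813494), and the guidance genes took 0.156% to 0.421% of them. Stromal markers were abundant in every group (10 of 10 above 0.1 FPKM, summed level 378.5 to 1790 FPKM over the libraries). FPKM is the number of fragments per kilobase of gene length, scaled to the library total, and is used here for all levels. Markers of macrophages and other haematopoietic cells were present as well (14 of 14 above 0.1 FPKM in each group, 398.4 to 1626 FPKM summed over the list). Endothelial markers were low (6.58 to 17.92 FPKM). Of 12 neuron and Schwann cell markers, Sox10, Rbfox3, Syt1, Elavl3, Elavl4 and Foxd3 were under 0.1 FPKM in all 6 groups.

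The BMSCs expressed most families of guidance genes. Of the 68 genes, 34 reached a group mean of 5 FPKM, 16 peaked between 1 and 5 FPKM, and 18 stayed under 1 FPKM in each group. The highest mean levels over all 18 samples were those of the plexin Plxnb2 (45.1 FPKM), the neuropilin Nrp2 (41.4 FPKM) and the membrane-linked semaphorin Sema7a (27.4 FPKM). The leading genes of the other families were Sema3c (16.1 FPKM), the ephrin-B gene Efnb1 (14.9), the netrin receptor Unc5b (14.3), the EphA receptor Epha2 (13.8), Slit3 (11.98), the EphB receptor Ephb4 (10.5), the ephrin-A gene Efna5 (6.84), Sema4c (5.18), Sema5a (5.003), the netrin Ntn1 (4.19), Robo1 (3.85) and Sema6d (2.77). A count of reads was tested for 62 of the genes. Epha6, Epha8, Epha10, Ntn5, Plxnb3 and Sema5b had between 1 and 100 reads over all libraries and did not pass the filter on low counts.

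FGF9 moved guidance genes in all 3 media, in both directions in CM and OI and mostly downwards in AI. A gene was called when its absolute log2 fold change was at least 1 and its adjusted p at most 0.05 (edgeR's quasi-likelihood test, Benjamini-Hochberg over the 17631 genes tested). In CM, 9 of 62 guidance genes were called higher and 8 lower with FGF9, where 5.5% and 5.16% of all tested genes were called. In OI, 9 were called higher and 8 lower, against 5.48% and 6.07% of all genes. In AI, 4 were called higher and 25 lower, against 6.66% and 9.32%. The shares of guidance genes called were 14.5% higher and 12.9% lower in CM and in OI, and 6.45% higher and 40.3% lower in AI. The median log2 fold change over the 62 genes (CM, OI, AI) was 0.04, 0.09 and -0.82, and that over all tested genes was 0.02, 0.01 and 0.05. In AI, 50 of the 62 had a fold change below 0. Of the called genes, 16 of 17 in CM, 17 of 17 in OI and 27 of 29 in AI had no overlap between the 3 and 3 samples in FPKM. A call itself selects for such separation, and the share among all called genes was not counted, so these counts add no support.

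The AI comparison depended on how libraries were scaled. With library totals in place of TMM factors, the median of all genes for FGF9 in AI moved from 0.05 to -0.16, the calls among all genes from 1174 higher and 1644 lower to 791 and 2057, and those among guidance genes from 4 and 25 to 3 and 33. The median of the guidance genes was then -1.03. It lay below the median of all genes under both scalings.

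**Figure D1:**
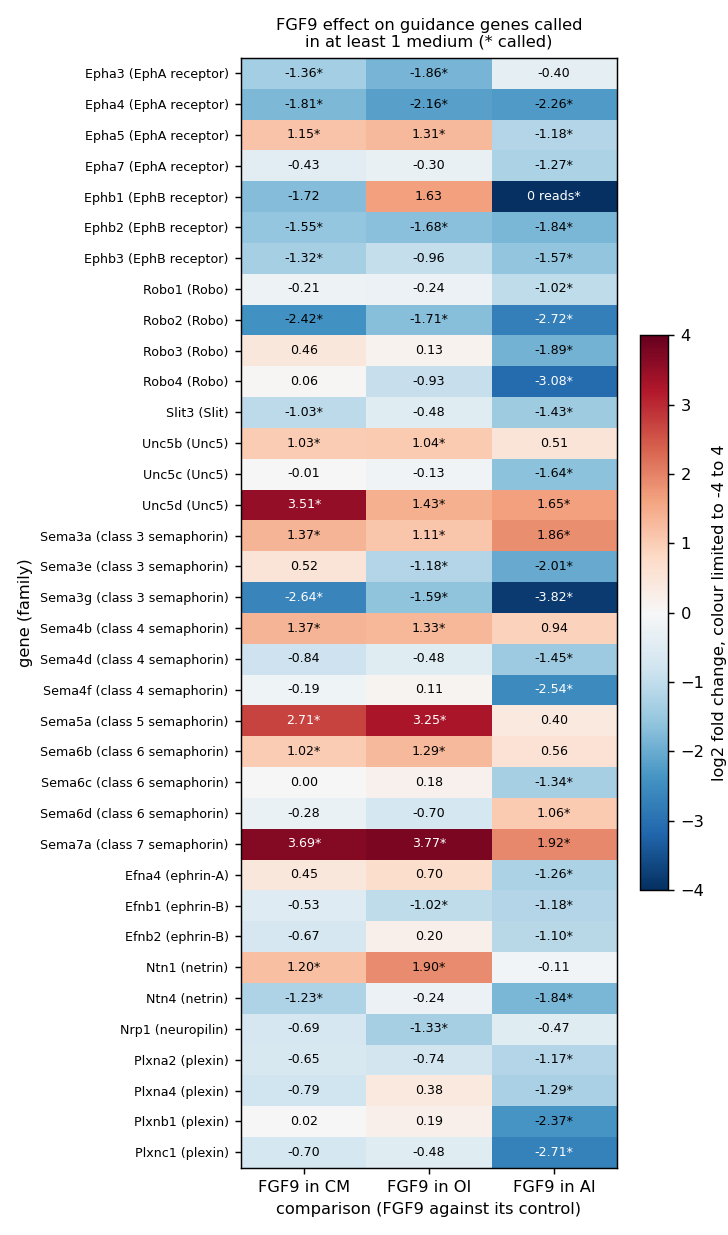
Log2 fold change with FGF9 in CM, OI and AI (columns) for the 36 guidance genes called in at least 1 medium (rows). Red is higher and blue is lower with FGF9, an asterisk marks a call, and Ephb1 in AI has no fold because AI_F9 held 0 reads. The CM and OI columns have 14 called genes in common, all with the same sign, and the AI column is mostly blue.

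Of the guidance genes, 36 were called in at least 1 medium. Sema3a, Sema7a and Unc5d were higher with FGF9 in all 3 media, and Epha4, Ephb2, Robo2 and Sema3g were lower in all 3. The 14 genes called in both CM and OI, which have separate control samples, all had the same direction. Over all tested genes, the FGF9 effect was called higher in OI than in CM in 0.499% and lower in 1.13%. Shares of all genes with the patterns of this paragraph were not counted. A further 15 genes were lower in AI and called in neither CM nor OI, whereas 1 gene, Sema6d, was higher in AI alone. Epha5 was the only gene called in opposite directions, higher in CM (1.15) and OI (1.31) and lower in AI (-1.18), at levels of at most 0.17 FPKM. Its CM call was lost under 7 and its OI call under 9 of 11 alternatives, DESeq2 among them, and its AI call without AI replicate 1 (-0.79).

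Promoter sequence is shown for 4 of the 7 genes called in the same direction in all 3 media, as the calls with FGF9 that each medium shared. Ephb2, Robo2 and Unc5d are not shown. Each run below is the 250 bases before the RefSeq start in GRCm38.p6, 5′ to 3′ on the gene's strand. The capitals mark a GC box (GGGCGG or its reverse complement) or a TATAA match. The window of Sema7a is chr9:57939862-57940111 on the plus strand, that of Sema3a chr5:13396534-13396783 (plus), that of Epha4 chr1:77515089-77515338 (minus) and that of Sema3g chr14:31217623-31217872 (plus). The builds differ, but the Sema3a window falls well within the deposited span of the gene (13175381 to 13652533, GRCm39). It may thus precede an internal start and not the 5′ end of the counted gene.
Sema7a: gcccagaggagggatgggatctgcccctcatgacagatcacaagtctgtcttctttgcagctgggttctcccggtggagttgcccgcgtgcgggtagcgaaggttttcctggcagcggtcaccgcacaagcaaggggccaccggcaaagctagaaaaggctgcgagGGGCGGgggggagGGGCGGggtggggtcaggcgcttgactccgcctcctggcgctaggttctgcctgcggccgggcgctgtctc
Sema3a: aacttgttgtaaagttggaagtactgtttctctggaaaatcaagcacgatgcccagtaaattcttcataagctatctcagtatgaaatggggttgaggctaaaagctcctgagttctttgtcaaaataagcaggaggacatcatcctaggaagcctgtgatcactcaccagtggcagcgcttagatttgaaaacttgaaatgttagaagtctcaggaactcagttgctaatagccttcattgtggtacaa
Epha4: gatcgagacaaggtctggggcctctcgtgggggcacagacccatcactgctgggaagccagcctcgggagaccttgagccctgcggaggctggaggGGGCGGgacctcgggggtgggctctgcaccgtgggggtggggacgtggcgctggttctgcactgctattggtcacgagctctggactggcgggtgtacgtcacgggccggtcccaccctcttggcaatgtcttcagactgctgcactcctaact
Sema3g: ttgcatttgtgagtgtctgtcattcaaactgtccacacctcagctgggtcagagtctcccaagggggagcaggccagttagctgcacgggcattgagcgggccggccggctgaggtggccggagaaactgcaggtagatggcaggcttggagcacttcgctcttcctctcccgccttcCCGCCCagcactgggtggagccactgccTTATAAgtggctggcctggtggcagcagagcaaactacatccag
The windows differ from each other. Sema7a has 2 GC boxes and a GC content of 66.4%, Epha4 has 1 GC box and 66% GC, Sema3g has 1 GC box and a TTATAA close to its start with 60.4% GC, and Sema3a has neither motif and 40.8% GC, where the median of all windows is 52.4%. Searched on both strands, none of these 4 held an AP-1 (TGANTCA), ETS (CCGGAAG), TEAD (GGAATG) or CRE (TGACGTCA) match, which 6.75%, 6.91%, 12.6% and 1.55% of 32851 windows of the same length held. GGGCGG was in 32.7% and TATAA in 22.8% of them, and these last motifs were added after the sequences were seen. The absence of these letters in 250 bases says nothing about the factors.

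With FGF9 in CM and OI, Sema7a had the largest change among guidance genes that reached 5 FPKM in a group, whereas in AI that of Robo2 (-2.72) was larger. Sema7a (ENSMUSG00000038264, GRCm39 chromosome 9 from 57847395 to 57870148) encodes a semaphorin tied to the membrane by a lipid anchor, which binds plexin-C1 and integrins. It was at 3.15, 3.48 and 5.73 FPKM in CM and at 57.0, 54.99 and 54.3 in CM_F9. In OI it was at 3.69, 2.96 and 2.72 and in OI_F9 at 44.0, 42.8 and 45.8. In AI it was at 12.9, 13.3 and 14.2 and in AI_F9 at 43.7, 48.4 and 40.3. Every sample with FGF9 lay far above each sample without it, and AI without FGF9 was already above CM. In CM the log2 fold change was 3.69 (SE 0.13, adjusted p = 1.12e-16), in OI 3.77 (SE 0.13, adjusted p = 1.56e-16) and in AI 1.92 (SE 0.11, adjusted p = 1.69e-12). The effect in AI was smaller than that in CM by 1.76 on the log2 scale (edgeR interaction contrast, SE 0.17, adjusted p = 1.2e-08), while the FGF9 groups themselves lay between 40.3 and 57.0 FPKM in all media.

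Sema5a, a transmembrane semaphorin with thrombospondin repeats that acts on plexin-A and plexin-B receptors, rose with FGF9 in CM and OI. It was at 1.57, 1.46 and 1.62 FPKM in CM and at 10.6, 10.98 and 10.2 in CM_F9. It was at 1.02, 1.04 and 0.76 in OI and at 9.58, 10.7 and 7.62 in OI_F9. The log2 fold changes were 2.71 (SE 0.12, adjusted p = 4.73e-15) and 3.25 (SE 0.12, adjusted p = 4.28e-16). In AI it was at 3.60, 3.95 and 3.15, and in AI_F9 at 4.51, 4.27 and 3.48. These AI groups overlapped and the log2 difference was 0.40, so the effect differed from that in CM by -2.31 (SE 0.16, adjusted p = 4.79e-11).

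Sema3a, the secreted repellent that signals through neuropilin-1 and plexin-A receptors, rose with FGF9 in each medium from very different starting levels. Its levels were 6.50, 7.30 and 5.92 FPKM in CM and 17.8, 18.1 and 17.5 in CM_F9. They were 7.03, 7.14 and 6.42 in OI and 15.9, 15.8 and 14.4 in OI_F9. In AI they were 0.86, 0.80 and 0.88 and in AI_F9 2.65, 2.79 and 2.59. AI_F9 was thus below CM without FGF9 in every sample. In CM the log2 fold change was 1.37 (SE 0.07, adjusted p = 8.92e-14), in OI 1.11 (SE 0.07, adjusted p = 4.41e-12) and in AI 1.86 (SE 0.09, adjusted p = 1.49e-14), and the groups did not overlap in any medium.

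Sema4b and Sema6b, both transmembrane semaphorins, rose in CM and OI. Sema4b was at 1.35 to 1.61 FPKM in CM and 3.68 to 4.41 in CM_F9 (log2 fold change 1.37), and at 1.85 ± 0.142 (mean ± SD, n = 3) in OI and 4.58 to 5.18 in OI_F9 (1.33). In AI it was at 1.54 to 1.87 and 2.43 to 3.10 with FGF9, without overlap, and its log2 fold change of 0.94 was just under the threshold (adjusted p = 2.14e-07). Sema6b had log2 fold changes of 1.02 in CM and 1.29 in OI. Its CM value fell below 1 without CM replicate 2 or without CM_F9 replicate 1 (0.89 at the lowest).

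**Figure D2:**
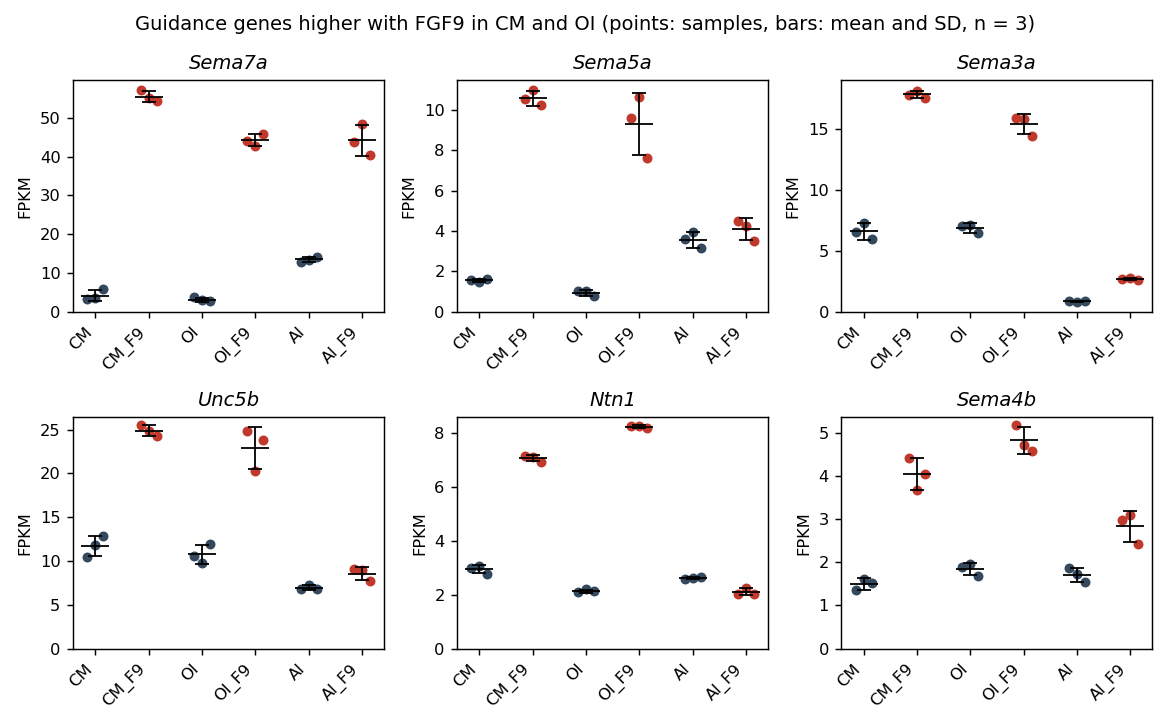
FPKM of 6 guidance genes that rose with FGF9 in CM and OI, by group (x axis). Points are samples, and bars are the mean and SD of 3 samples. The AI_F9 samples of Sema7a lie at 40.3 to 48.4 FPKM, near the CM_F9 samples at 54.3 to 57.0, whereas those of Sema5a, Ntn1 and Unc5b lie far below their CM_F9 samples.

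Sema3g fell in all 3 media, and Sema3e in OI and AI. Sema3g, which signals through neuropilin-2 and is known from endothelial cells and fat, was at 3.41, 3.97 and 3.55 FPKM in AI and at 0.23, 0.18 and 0.26 in AI_F9. It was at 0.35, 0.28 and 0.54 FPKM in CM and 0.04, 0.11 and 0.04 in CM_F9, and at 0.36, 0.45 and 0.26 in OI and 0.22, 0.07 and 0.07 in OI_F9. The samples with FGF9 were lower in every medium, and the log2 fold changes in CM, OI and AI were -2.64, -1.59 and -3.82 (adjusted p = 1.964e-05, 0.00162 and 3.44e-11). The CM value was -3.38 without CM_F9 replicate 2 and the OI value -2.34 without OI_F9 replicate 1. Sema3e, the ligand of plexin-D1, was at 5.69, 5.88 and 5.35 FPKM in OI and at 2.6, 2.9 and 2.2 in OI_F9. In AI it was at 1.09, 1.02 and 1.22 and in AI_F9 at 0.29, 0.16 and 0.27. In CM it was at 1.22, 1.49 and 1.12, and at 1.84, 2.18 and 1.70 in CM_F9. It was thus lower with FGF9 in OI (-1.18, adjusted p = 4.15e-08) and AI (-2.01, adjusted p = 2.23e-09) and somewhat higher in CM (0.52, adjusted p = 0.00411). The effect in OI differed from that in CM by -1.70 (SE 0.18, adjusted p = 1.11e-06) and the effect in AI by -2.53 (SE 0.23, adjusted p = 4.48e-09).

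The other class 3 semaphorins were not called with FGF9. Sema3c had log2 differences (CM, OI, AI) of 0.16, -0.73 and 0.01, and Sema3d of 0.44, -0.49 and -0.42. Sema3b had 0.33, -0.36 and -0.27, and Sema3f -0.24, -0.32 and -0.90. For Sema3b, Sema3c and Sema3d the CM and OI effects had opposite signs, and the differences between them were -0.69, -0.89 and -0.93, each with an adjusted p of at most 0.00338 and under the threshold of 1.

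Sema6d, the transmembrane ligand of plexin-A1, was the only guidance gene called higher in AI alone. It was at 3.20, 3.67 and 3.03 FPKM in AI and at 6.14, 6.06 and 5.68 in AI_F9, without overlap (log2 fold change 1.06, SE 0.11, adjusted p = 1.15e-08). It was at 1.80, 1.80 and 2.01 in CM and 1.52, 1.53 and 1.79 in CM_F9 (-0.28), and at 2.81, 2.38 and 1.89 in OI and 1.55, 1.65 and 1.30 in OI_F9 (-0.70, adjusted p = 3.1e-05). The AI effect differed from the CM effect by 1.34 (SE 0.16, adjusted p = 2.97e-07). The AI fold change was 0.85 with library totals and fell under 1 without AI replicate 3.

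Sema4d, Sema4f and Sema6c were lower with FGF9 in AI and called in no other medium. Sema4d, the ligand of plexin-B1 that osteoclasts are known to release, was at 1.05, 1.04 and 1.29 FPKM in AI and 0.45, 0.33 and 0.29 in AI_F9 (log2 fold change -1.45, adjusted p = 6.61e-08). It was lower with FGF9 without overlap in CM too (5.18, 4.08 and 5.46 against 2.91, 2.57 and 3.09). The same held in OI (4.12, 3.98 and 4.42 against 3.36, 3.12 and 2.82). Its AI effect differed from that in CM by -0.61 (edgeR interaction contrast, adjusted p = 0.017), under the threshold. Sema6c had a log2 fold change of -1.34. Sema4f had 54 reads in AI and 8 in AI_F9, a ratio of 6.93 (95% interval 3.28 to 16.9, for counting error only), and a fitted log2 fold change of -2.54 that became -3.31 without AI_F9 replicate 1. Sema4c was higher in CM (0.43) and OI (0.46) and lower in AI (-0.39), each without overlap and below the fold change of a call.

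Plexins, the receptors of semaphorins, were called in AI. With edgeR and with DESeq2, 0 of 8 tested plexins were called in CM or OI. In edgeR, 7 and 6 of them had an unadjusted p under 0.05, and 6 and 5 an adjusted p of at most 0.05. Of all genes, 5.5% were called higher and 5.16% lower in CM, and 5.48% and 6.07% in OI. With 8 genes, 0 calls lie near these shares. In AI, 4 were lower, namely Plxna2, Plxna4, Plxnb1 and Plxnc1, against 9.32% of all genes. Plxnb2 was the most abundant, at 58.8 ± 1.43 FPKM in CM and 51.8 ± 1.52 in CM_F9 (mean ± SD, n = 3 throughout). It was at 40.2 ± 3.84 in AI and 17.6 ± 1.19 in AI_F9, and its log2 fold change of -0.99 (adjusted p = 7.19e-12) was just outside the threshold. Plxna1 (-0.58), Plxna3 (-0.37) and Plxnd1 (-0.25) were also lower in AI_F9 with an adjusted p of at most 0.05.

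Plxna2, a plexin-A receptor of class 3 and class 6 semaphorins, was at 8.50, 8.66 and 6.91 FPKM in AI and at 3.34, 3.25 and 2.67 in AI_F9 (log2 fold change -1.17, SE 0.09, adjusted p = 2.02e-10). It was lower with FGF9 in the other media too, from 5.94, 6.04 and 6.35 to 4.01, 4.21 and 3.96 in CM (-0.65) and from 11.9, 12.4 and 10.4 to 7.40, 7.82 and 6.24 in OI (-0.74). Plxnb1, the receptor of semaphorin 4D, was at 2.06, 2.05 and 1.51 FPKM in AI and 0.38, 0.27 and 0.29 in AI_F9 (-2.37, adjusted p = 2.44e-12), while its CM groups overlapped (0.02). Plxnc1, the receptor of semaphorin 7A, was at 1.22, 1.45 and 1.26 in AI and 0.17, 0.20 and 0.15 in AI_F9 (-2.71, adjusted p = 4.32e-11). It was also lower with FGF9, without overlap and not called, in CM (2.71 to 4.26 against 2.06 to 2.36) and OI (2.47 to 2.62 against 1.49 to 2.12). The ligand Sema7a thus rose and this receptor fell in the same AI_F9 samples. Plxna4 had -1.29 in AI, and its FGF9 effect was -0.79 in CM and 0.38 in OI, which differed by 1.17 (SE 0.22, adjusted p = 0.0015).

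Of the neuropilins, co-receptors of class 3 semaphorins and VEGF, Nrp1 was lower and Nrp2 higher with FGF9 in CM and OI. Nrp1 was at 15.2, 14.3 and 15.96 FPKM in CM and 9.49, 10.2 and 9.73 in CM_F9. It was at 25.4, 25.5 and 21.9 in OI and 10.8, 10.6 and 8.48 in OI_F9, and at 21.9, 23.2 and 19.4 in AI and 13.7, 13.4 and 13.1 in AI_F9. All FGF9 samples were below their controls, and the OI change was called (-1.33, SE 0.08, adjusted p = 2.51e-12), those in CM (-0.69) and AI (-0.47) not. Nrp2 was at 45.2 ± 1.07 FPKM in CM and 67.7 ± 0.156 in CM_F9, and at 36.9 ± 2.25 in OI and 54.6 ± 4.12 in OI_F9 (0.52 in each, under the threshold, adjusted p = 2.85e-07 and 3.25e-07). In AI it was at 26.9 ± 1.94 and in AI_F9 at 17.0 ± 0.940 (-0.46, adjusted p = 1.61e-06).

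Netrin 1 and the receptor Unc5b rose with FGF9 in CM and OI, and Ntn4 fell in CM and AI. Ntn1, the founding secreted netrin, was at 2.99, 3.08 and 2.78 FPKM in CM and 7.16, 7.12 and 6.94 in CM_F9. It was at 2.09, 2.2 and 2.12 in OI and 8.25, 8.28 and 8.19 in OI_F9, and at 2.59, 2.62 and 2.65 in AI and 2.04, 2.26 and 2.02 in AI_F9. The log2 fold changes were 1.20 in CM (SE 0.07, adjusted p = 1.2e-12) and 1.899 in OI (SE 0.07, adjusted p = 4.14e-16), and the value in AI was -0.11 (adjusted p = 0.255). The effect in AI differed from that in CM by -1.31 (SE 0.10, adjusted p = 4.1e-10).

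Ntn4, a netrin that binds laminin in basement membranes, fell in CM and AI. It was at 7.42, 7.62 and 6.71 FPKM in CM and 2.94, 3.52 and 3.20 in CM_F9 (log2 fold change -1.23, adjusted p = 7.06e-10). Its AI samples were at 0.85, 0.78 and 0.74 and its AI_F9 samples at 0.18, 0.15 and 0.25 (-1.84, adjusted p = 3.92e-08). In OI it was at 5.45, 5.66 and 6.28 and at 5.03, 5.06 and 5.17 with FGF9 (-0.24, adjusted p = 0.0585). Ntn3 was called in no FGF9 contrast. It lies on the same strand as Tbc1d24 with overlapping spans, which had 16079 reads against 1503 for Ntn3, so its reads are uncertain.

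Unc5b, a netrin receptor of stromal and endothelial cells, rose in CM and OI just past the threshold. It was at 10.5, 11.8 and 12.8 FPKM in CM and 25.5, 24.9 and 24.3 in CM_F9, and at 10.6, 9.76 and 11.9 in OI and 24.8, 20.2 and 23.8 in OI_F9. It was at 6.82, 7.28 and 6.78 in AI and 9.05, 9.0 and 7.66 in AI_F9. The FGF9 samples were higher in each medium without overlap, with log2 fold changes of 1.03 (SE 0.08, adjusted p = 5.73e-10), 1.04 (SE 0.08, adjusted p = 4.46e-10) and 0.51 (SE 0.09, adjusted p = 4.05e-05). Without CM replicate 1 the CM value was 0.95, and the OI value was 0.98 at the lowest, without OI replicate 2 or OI_F9 replicate 1. Unc5c fell in AI, from 2.18 to 2.59 FPKM in AI to 0.65 to 0.70 in AI_F9 (-1.64, adjusted p = 2.88e-11), where its CM (-0.01) and OI (-0.13) groups overlapped. Unc5d was called higher in all media but had 240 reads over all libraries, with the AI groups overlapping at 0.01 to 0.03 and 0.03 to 0.09 FPKM. Its OI call was lost without OI replicate 1 or 3 or OI_F9 replicate 1 or 3 (1.19 at the lowest), and its AI call without AI replicate 1 or AI_F9 replicate 1 (1.30 at the lowest). Unc5a was called in no contrast, and its span overlaps Hk3 on the opposite strand.

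**Figure D3:**
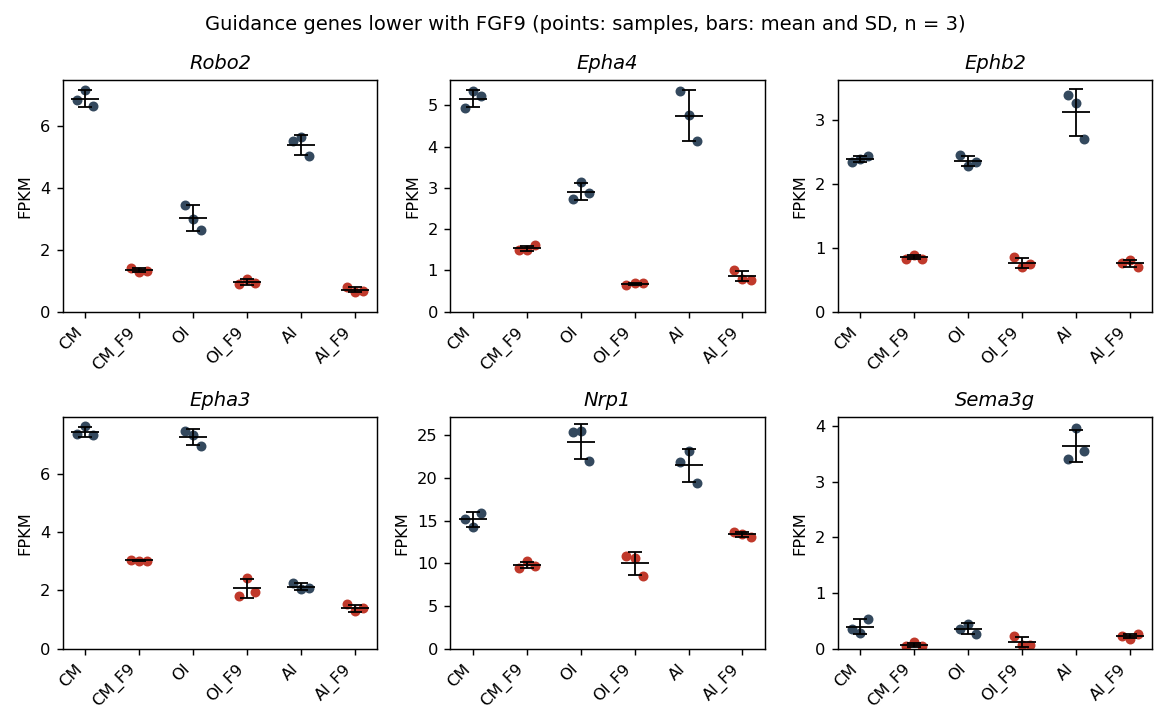
FPKM of 6 guidance genes that were lower with FGF9, by group (x axis). Points are samples, and bars are the mean and SD of 3 samples. Robo2, Epha4 and Ephb2 fall in each medium, Epha3 falls from 6.96 to 7.65 FPKM in CM and OI to at most 3.04 with FGF9, and Sema3g stands out in AI without FGF9.

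Robo2 fell in all 3 media, and Slit3 in CM and AI. Robo2, a receptor for Slits, was at 6.85, 7.16 and 6.63 FPKM in CM and 1.41, 1.28 and 1.32 in CM_F9. It was at 3.45, 2.99 and 2.64 in OI and 0.89, 1.06 and 0.92 in OI_F9, and at 5.52, 5.64 and 5.02 in AI and 0.81, 0.64 and 0.68 in AI_F9. The FGF9 samples were far below their controls in each medium. The log2 fold changes were -2.42 (SE 0.09, adjusted p = 3.41e-16), -1.71 (SE 0.09, adjusted p = 5e-13) and -2.72 (SE 0.10, adjusted p = 1.13e-16). Robo1 was at 5.68, 5.55 and 4.74 FPKM in AI and 2.40, 2.34 and 2.08 in AI_F9 (-1.02, SE 0.10, adjusted p = 5.42e-09), under 1 without AI replicate 1 or without AI_F9 replicate 3 (0.97 at the smallest). In CM it was at 4.78, 4.95 and 4.43 and at 4.18, 4.65 and 3.98 with FGF9 (-0.21), and in OI at 3.77, 3.68 and 2.95 and at 3.29, 3.20 and 2.63 (-0.24), with overlap in both.

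All 4 Robos were called lower in AI, against 9.32% of all genes, but the calls of Robo1 and Robo3 were lost under some alternatives. Robo4, known from endothelial cells, was at 0.70, 0.63 and 0.71 FPKM in AI and 0.10, 0.06 and 0.05 in AI_F9 (-3.08, adjusted p = 9.83e-09), where the CM groups overlapped (0.06). In OI it was at 0.50, 0.64 and 0.51 and at 0.35, 0.27 and 0.26 with FGF9, without overlap and not called. Robo3 had 22 reads in AI and 5 in AI_F9, a ratio of 4.52 (95% interval 1.67 to 15.3, for counting error only). Its fitted value of -1.89 became -2.60 without AI_F9 replicate 3, and it was no longer called under 7 of 11 alternatives, DESeq2 among them.

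Slit3, the secreted Slit that osteoblasts are known to make, was at 15.8, 16.6 and 16.7 FPKM in CM and 8.39, 8.71 and 7.96 in CM_F9. It was at 13.0, 12.7 and 11.99 in OI and 9.47, 10.2 and 8.38 in OI_F9, and at 20.3, 20.8 and 16.1 in AI and 6.82, 6.05 and 5.54 in AI_F9. It was lower with FGF9 in all 9 samples, by log2 fold changes of -1.03 (SE 0.09, adjusted p = 8.22e-10) for CM, -0.48 (adjusted p = 7.86e-05) for OI and -1.43 (SE 0.09, adjusted p = 2.18e-12) for AI. The CM value was -0.97 with library totals. Slit2 was higher in CM_F9 (10.7 ± 0.235 against 6.08 ± 0.105 FPKM, 0.75, adjusted p = 5.15e-09) and in OI_F9 (7.57 ± 0.555 against 4.59 ± 0.456, 0.67), below the fold change of a call. In AI its groups overlapped (0.09).

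Of 11 tested Eph receptors, 4 were called lower with FGF9 in CM, 3 in OI and 6 in AI, against 5.16%, 6.07% and 9.32% of all genes, and Epha5 was called higher in CM and OI. Epha4, a receptor with broad binding to ephrins of both classes, was at 4.93, 5.35 and 5.22 FPKM in CM and 1.5, 1.5 and 1.61 in CM_F9. It was at 2.73, 3.14 and 2.87 in OI and 0.64, 0.69 and 0.69 in OI_F9, and at 5.36, 4.77 and 4.13 in AI and 1.00, 0.80 and 0.77 in AI_F9. The log2 fold changes were -1.81 (SE 0.10, adjusted p = 6.27e-13), -2.16 (SE 0.11, adjusted p = 2.2e-13) and -2.26 (SE 0.11, adjusted p = 2.56e-14). No sample with FGF9 reached a control sample in any medium.

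Epha3, a receptor of A-type ephrins, was at 7.38, 7.65 and 7.33 FPKM in CM and 3.04, 3.03 and 3.03 in CM_F9, and at 7.5, 7.35 and 6.96 in OI and 1.82, 2.44 and 1.95 in OI_F9. In AI it was at 2.26, 2.04 and 2.08 and at 1.52, 1.28 and 1.38 with FGF9. The log2 fold changes were -1.36 (SE 0.08, adjusted p = 3.2e-12), -1.86 (SE 0.09, adjusted p = 1.78e-14) and, not called, -0.40 in AI (adjusted p = 0.00102). Epha2, the most abundant EphA receptor, was higher with FGF9 in CM (12.1 ± 0.532 to 21.0 ± 1.001 FPKM, 0.73) and OI (13.8 ± 0.398 to 19.5 ± 1.27, 0.45) and lower in AI (11.3 ± 0.115 to 5.29 ± 0.511, -0.88). The AI effect differed from the CM effect by -1.62 (SE 0.10, adjusted p = 4.11e-12). Epha7 fell in AI (4.27 ± 0.311 to 1.53 ± 0.0351 FPKM, -1.27, adjusted p = 1.63e-09).

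Among the EphB receptors, which bind B-type ephrins, Ephb3 was at 8.44, 8.0 and 7.89 FPKM in CM and 3.77, 3.28 and 3.11 in CM_F9 (-1.32, SE 0.09, adjusted p = 1.89e-11). It was at 5.64, 5.05 and 4.53 in OI and 2.58, 2.62 and 2.87 in OI_F9 (-0.96, adjusted p = 8.29e-09). Its AI samples were at 3.92, 3.91 and 3.97 and its AI_F9 samples at 1.32, 1.08 and 1.03 (-1.57, adjusted p = 6.21e-12). The OI value was just outside the threshold. Ephb2 fell in each medium, from 2.28 to 3.38 FPKM without FGF9 to 0.69 to 0.89 with it (log2 fold changes -1.55, -1.68 and -1.84). Ephb4, the receptor of ephrin-B2, had 0.08 in CM and 0.15 in OI and was lower in AI (12.2 ± 0.962 to 5.99 ± 0.263 FPKM, -0.81, adjusted p = 1.69e-10). Ephb6, a receptor without kinase activity, was higher in CM (0.89) and lower in AI (-0.90), and these effects differed by -1.79 (SE 0.19, adjusted p = 6.94e-08). Ephb1 had 56 reads in AI and 0 in AI_F9, at least 19.2-fold lower with a floor of 3 counts over the group.

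Of 8 tested ephrins, 3 fell in AI, namely Efnb1, Efnb2 and Efna4, against 9.32% of all genes. Efnb1 was the 1 ephrin called in OI, where 6.07% of all genes were lower. Efnb1 was at 15.8, 16.03 and 17.9 FPKM in CM and 11.8, 12.5 and 11.7 in CM_F9 (-0.53). It was at 25.9, 27.4 and 26.2 in OI and 13.9, 12.3 and 14.4 in OI_F9 (-1.02, SE 0.07, adjusted p = 2.16e-11). Its AI samples were at 14.4, 15.7 and 14.96 and its AI_F9 samples at 5.49, 6.29 and 5.41 (-1.18, SE 0.07, adjusted p = 4.16e-12). Every FGF9 sample lay below its controls. The OI value was -0.97 with library totals, and it fell short of the threshold without OI replicate 2 or without OI_F9 replicate 2 (-0.95 at the smallest).

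Efnb2, the ligand of Ephb4, was at 8.50, 8.97 and 8.56 FPKM in CM and 5.63, 5.54 and 5.93 in CM_F9 (-0.67, adjusted p = 2.16e-09). It was at 4.40, 4.36 and 4.12 in OI and 4.97, 4.91 and 5.45 in OI_F9 (0.20, adjusted p = 0.0106). Its AI samples were at 15.9, 15.8 and 15.4 and its AI_F9 samples at 6.50, 6.43 and 6.08 (-1.10, SE 0.06, adjusted p = 1.24e-13). Without FGF9 its level thus ranked OI, CM, AI from low to high, and with FGF9 the 3 media lay between 4.91 and 6.50 FPKM. The effect in OI differed from that in CM by 0.87 (SE 0.08, adjusted p = 2.2e-07). Efna4 was at 5.77, 7.48 and 6.15 FPKM in AI and 2.08, 2.31 and 2.65 in AI_F9 (-1.26, SE 0.15, adjusted p = 2.2e-07). In CM and CM_F9 it was at 4.40, 5.17 and 5.06 and at 6.72, 7.21 and 6.99 (0.45), and in OI and OI_F9 at 3.63, 3.65 and 2.99 and at 5.81, 4.76 and 6.71 (0.70), so that its AI effect differed from that in CM by -1.71 (SE 0.20, adjusted p = 3.58e-07). Its span overlaps 4731419I09Rik on the opposite strand, which had 17.6% as many reads.

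The FGF9 effect differed between AI and CM in 20 of the 62 guidance genes, 18 of them lower in AI and 2 higher (8.45% and 5.66% of all genes), and between OI and CM in 2, 1 higher and 1 lower (0.499% and 1.13% of all genes). With library totals, the median of all genes for the AI difference moved from -0.0039 to -0.27 and the guidance genes called were 29 lower and 1 higher. These comparisons share the CM and CM_F9 samples. Of the 18, Efna2, Epha2, Ephb6, Sema4g and Sema6a were called in no single medium, with values above 0 in CM and below 0 in AI that stayed under the threshold. Most family sums of FPKM were lower in AI_F9 than in AI, and those of the class 5, 6 and 7 semaphorins were higher. The summed EphA receptors were at 30.6 ± 1.13 FPKM in CM, 30.3 ± 1.03 in CM_F9, 22.7 ± 0.947 in AI and 9.42 ± 0.497 in AI_F9. The summed plexins were at 125.1 ± 4.19, 115.7 ± 3.41, 92.0 ± 10.7 and 47.0 ± 3.73 FPKM in the same groups. The class 6 semaphorin sum was 5.80 ± 0.496 FPKM in AI and 7.46 ± 0.387 in AI_F9, and the Unc5 sum 10.1 ± 0.461 and 9.86 ± 0.939. FPKM are scaled to library totals without TMM factors, so the direction of a small difference such as that of Unc5 may depend on the scaling.

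**Figure D4:**
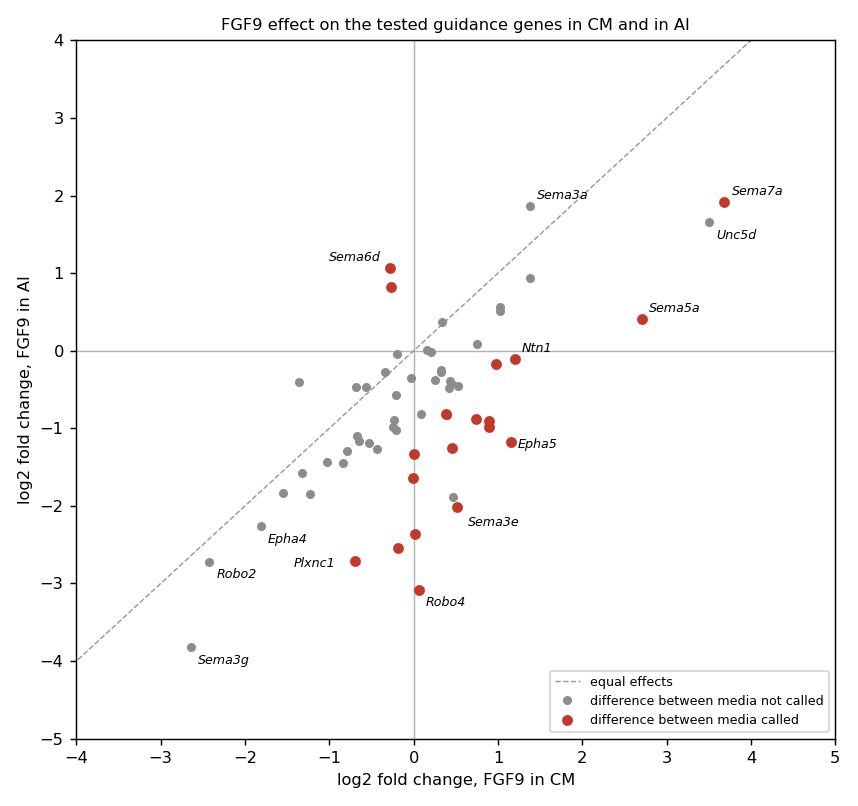
Log2 fold change with FGF9 in CM (x axis) and in AI (y axis) for 61 tested guidance genes, Ephb1 left out because AI_F9 held 0 reads. Red points are genes whose effects differ between the media by the interaction test. Most red points lie below the dashed line of equal effects, and Sema6d lies above it.

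Markers of other cell types moved with FGF9 in AI. The 14 macrophage and haematopoietic markers were all called lower, and their summed level was 1405 to 1626 FPKM in AI and 398.4 to 436.9 in AI_F9. In CM the sum was 449.7 to 773.9 and 457.9 to 533.1 with FGF9 (2 of 14 called lower), and in OI 1153 to 1413 and 1018 to 1066. The median log2 fold change of the list (CM, OI, AI) was -0.70, -0.47 and -1.91. Of 11 tested endothelial markers, 9 were called lower in AI, 3 in CM and 4 in OI. Over all tested genes, 9.32%, 5.16% and 6.07% were called lower in AI, CM and OI, and 6.66% higher in AI. The endothelial sum was 15.69 to 17.92 FPKM in AI and 6.58 to 7.59 in AI_F9, where Tek, Tie1, Cldn5, Vwf and Flt1 were under 0.1 FPKM. Vwf was under 0.1 FPKM in AI without FGF9 too. Egfl7 went the other way, from 4.14 ± 0.138 to 5.01 ± 0.483 FPKM (log2 fold change 0.48, not called), and made up most of the AI_F9 sum. The stromal sum was 676.9 to 692.2 in AI and 378.5 to 387.9 in AI_F9, with 3 of 10 called lower and 1 higher, and the adipocyte sum 1726 to 1934 and 4014 to 4412, with 5 of 8 called higher. Of 8 osteoblast markers, 2 were higher and 4 lower in AI. The part of these cell types in the lower guidance genes of AI_F9, such as Plxnc1, Sema4d, Robo4 and Sema3g, was not tested. In these bulk samples fewer cells of a type and less RNA per cell cannot be told apart.

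Levels of the guidance genes also differed between the media without FGF9. In OI against CM, 2 of 62 were called higher and 5 lower, against 3.55% and 1.93% of all genes. Sema3e rose (2.12 on the log2 scale in OI, SE 0.13, adjusted p = 1.65e-11), from 1.12 to 1.49 FPKM in CM to 5.35 to 5.88. Robo2 (-1.21), Epha7 (-1.44), Plxna4 (-1.19) and Efnb2 (-1.04) fell, and Efnb2 was not called without CM replicate 2 (-0.9999). Ephb1 had 18 reads in CM and 1 in OI, a ratio of 16.8 (95% interval 2.65 to 701, for counting error only). Ntn3 was at the threshold (1.00) and was lost with the replicate block and without CM replicate 1, CM replicate 2 or OI replicate 1 (0.79 at the lowest).

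In AI against CM, 6 guidance genes were called higher and 13 lower, against 8.68% and 13.5% of all genes. Of the 7 class 3 semaphorins, the largest group of secreted semaphorins, 5 were lower and 1 higher. Sema3b fell from 5.85 to 6.44 FPKM in CM to 0.30 to 0.37 in AI (log2 fold change -4.35, SE 0.14, adjusted p = 1.83e-17). Sema3d (-3.52), Sema3a (-3.06), Sema3c (-2.28) and Sema3f (-2.01) fell as well, whereas Sema3g rose from 0.28 to 0.54 FPKM to 3.41 to 3.97 (3.10, SE 0.25, adjusted p = 2.2e-10). Neither OI nor CM overlapped AI for these 6 genes. The summed class 3 level was 52.6 ± 4.12 FPKM in CM, 49.4 ± 1.42 in OI and 14.1 ± 0.612 in AI.

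**Figure D5:**
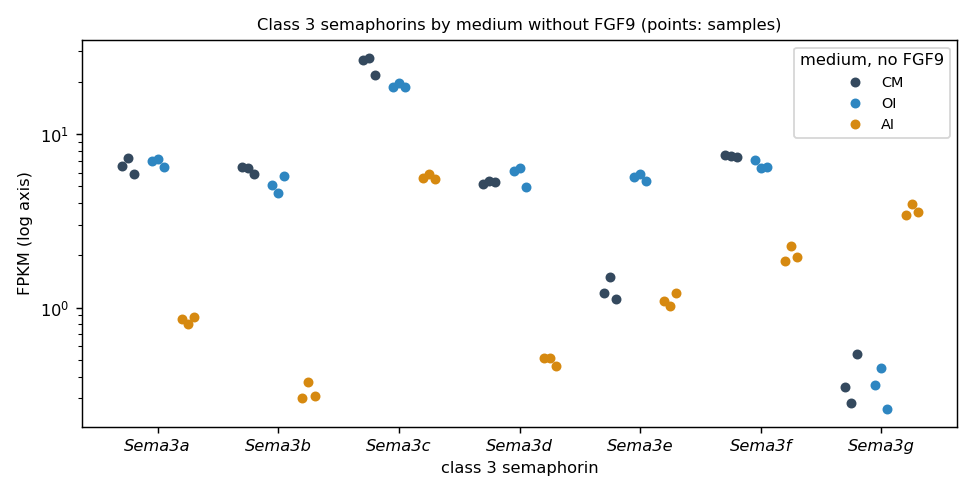
FPKM (log axis) of the 7 class 3 semaphorins in CM, OI and AI without FGF9. Points are samples. Sema3a, Sema3b, Sema3c, Sema3d and Sema3f are lowest in AI, Sema3g is highest in AI at 3.41 to 3.97 FPKM, and Sema3e is highest in OI.

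The other genes lower in AI than in CM were Epha1 (-3.51), Ntn4 (-3.31), Sema4d (-2.23), Epha3 (-1.92), Plxnc1 (-1.5), Plxna3 (-1.31), Ephb3 (-1.16) and Ntn3 (-1.04). Those higher were Epha5 (2.11), Sema7a (1.59), Ephb1 (1.58), Robo4 (1.19) and Sema5a (1.09). Without AI replicate 2 the Sema5a value was 0.997 and not called, and Ntn3 was lost with library totals, without AI replicate 3 and without CM replicate 3 (-0.87 at the smallest). Sema7a rose from 3.15 to 5.73 FPKM in CM to 12.9 to 14.2 in AI (SE 0.13, adjusted p = 3.48e-10), and it was higher again with FGF9. For Ntn4 and Sema4d the level was lower in AI than in CM and lower again in AI_F9. Sema3a was lower in AI than in CM and higher in AI_F9 than in AI, and Sema3g and Robo4 had risen in AI against CM and were lower in AI_F9 than in AI. Both media comparisons share the CM samples. Markers of other cell types moved with the media as well. In AI against CM, 8 of 8 adipocyte markers were higher, 6 of 11 endothelial markers were higher and 3 lower (Cdh5 1.43, Pecam1 1.12, Vwf -3.94), and 3 of 14 macrophage and haematopoietic markers were higher and 5 lower. The shares of all genes called higher and lower were 8.68% and 13.5% in AI against CM, and 3.55% and 1.93% in OI against CM. In the latter, 5 of 8 adipocyte, 6 of 11 endothelial and 4 of 14 macrophage and haematopoietic markers were higher, and 2 endothelial markers were lower. Their part in the levels of guidance genes such as Robo4 and Sema3g was not tested. Epha1 overlaps Zyx on the opposite strand, which had 69352 reads against 1733, and Epha5 overlaps Hmgn2-ps1, with 690 reads against 272. Whether reads were counted by strand is not stated, so the reads of these genes are uncertain.

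Other genes of guidance signaling were read from lists. Of 24 tested cues and co-receptors outside the families above, 3 were higher and 2 lower with FGF9 in CM, 3 and 3 in OI, and 2 and 5 in AI. Over all tested genes 5.5% and 5.16% were called in CM, 5.48% and 6.07% in OI, and 6.66% and 9.32% in AI, so that with lists of this size several of these counts lie near the background. The cell adhesion gene Nrcam, a partner of neuropilins and ankyrin, rose from 0.993 ± 0.110 to 9.56 ± 0.482 FPKM in CM (log2 fold change 3.20) and from 2.003 ± 0.0321 to 11.7 ± 0.144 in OI (2.49), and not in AI (-0.30). Rgmb, a neogenin ligand, rose in CM (1.59) and OI (1.23), and Flrt1 in CM (1.20) and OI (2.44). Itga1, an integrin subunit that pairs with Itgb1, fell in all media, from 17.3 ± 0.669 to 3.51 ± 0.0737 FPKM in CM (-2.36), from 13.8 ± 1.14 to 2.78 ± 0.330 in OI (-2.36) and from 6.03 ± 0.384 to 1.41 ± 0.0987 in AI (-1.89). Vegfa, a neuropilin ligand, rose in AI from 36.1 ± 2.02 to 71.0 ± 1.79 FPKM (1.18), Chl1 rose there (2.19), and Kdr, the VEGF receptor, fell (-2.98). Kdr is also among the endothelial markers counted above. Gpc1 (-1.19), Lrrc4 (-1.23) and Lrrc4c (-1.36) also fell in AI. Dcc, the netrin receptor of neurons, was called lower in CM and OI at a mean of at most 0.137 FPKM, as was Islr2 in OI at 0.183 FPKM. Neo1, the related netrin and Rgm receptor, was at 30.2 ± 0.884 FPKM in CM and was not called.

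Of 41 tested cytoplasmic mediators, 2 were higher and 1 lower with FGF9 in CM, 2 and 4 in OI, and 9 were lower in AI. The CM counts are no larger than the shares of all genes (5.5% and 5.16%). In OI 5.48% of all genes were called higher and 6.07% lower, and in AI 9.32% were lower. The Eph-linked exchange factor Ngef (1.61 in CM and 1.74 in OI) and the Slit-Robo GTPase-activating protein Srgap3 (1.08 and 1.07) rose, and Ablim1, an actin-binding protein, fell (-1.67 and -2.24). In OI, Farp2 (-1.29), Mical1 (-1.11) and Rnd1 (-1.002) fell. In AI, the collapsin response mediator Dpysl3 fell from 33.6 ± 1.01 to 6.96 ± 0.271 FPKM (-2.06), Srgap1 from 6.92 ± 0.712 to 0.447 ± 0.117 (-3.74) and Nfatc4 from 31.7 ± 0.214 to 6.63 ± 0.0458 (-2.05). Farp1 (-1.71), Fyn (-1.36), Enah (-1.26), Fes (-1.26), Pak1 (-1.11) and the near-absent Crmp1 fell there too. The median log2 fold change of the mediators in AI was -0.24, against 0.05 over all genes.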

How the data were processed

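RNA-seq of 18 mouse BMSC libraries (6 groups of 3) was used. The submitters' processing notes name cutadapt 1.9.1, HISAT2 2.2.1, HTSeq 0.6.1 and the GRCm39 build. The deposited values are the read count of each of 56691 genes per sample, and FPKM, which the authors computed from these counts and which divide by gene length and library total. FPKM were checked against the counts (100% within 1% at or above 5 FPKM, 100% of smaller values within 0.01). Whether reads were counted by strand is not stated. Deposited annotation text was not used.

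With edgeR 4.0.16 under R 4.3.3, all 18 samples entered one quasi-likelihood model of the counts with a mean for each group, after filterByExpr and TMM, and 7 contrasts were tested. Adjusted p values are Benjamini-Hochberg over 17631 genes. A 3 against 3 exact permutation test cannot go below p = 0.1 (two-sided), so none is given. The common coefficient of variation between replicates was 7.69%. The steps were tested on simulated data for FGF9 in CM, with the same spread for every gene. Of 100 genes changed 2-fold, which is the threshold itself, 54% were called, and of 100 changed 4-fold 97%. Of the unchanged genes, 2 were called. SE are of the log2 fold change, and log2 fold changes are from the counts, not from FPKM.

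Alternatives were DESeq2 1.42.0, library totals without TMM, no filter on low counts, only the groups compared, the replicate number as a block, and each replicate left out. Same-numbered samples deviated together in OI (r of 0.374 to 0.507) but not in CM (0.0154 to 0.111). In AI their r was 0.177 to 0.495, but AI 2 with AI_F9 1 had 0.281 and AI 1 with AI_F9 2 had 0.128. Pairing in AI is therefore uncertain. The main model held no pairing, and the replicate number entered only as the block alternative, in all media.

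The guidance genes and lists were chosen with earlier results of these data known. Per-sample values are given for genes called in an FGF9 contrast that reached 5 FPKM in a group, other called genes are named with their log2 fold change, and other uncalled genes were given values as examples, chosen after their values were seen. Promoters came from RefSeq (GRCm38.p6), with a window for 59 of the 68 genes. Coordinates of genes are those of the deposited table (GRCm39).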

Additional observations from a re-analysis of the deposited data

Results flagged for a closer look

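For 20 guidance genes the effect of FGF9 in AI differed from that in CM, and for 2 the effect in OI differed from that in CM, each by edgeR's interaction contrast (absolute difference of at least 1 on the log2 scale and adjusted p at most 0.05). The values that follow are the log2 effect in AI minus that in CM.

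Among ligands, the difference was -1.76 for Sema7a, -2.31 for Sema5a, -2.53 for Sema3e, -2.35 for Sema4f, -1.15 for Sema4g, -1.89 for Sema6a, -1.34 for Sema6c, -1.31 for Ntn1, -1.20 for Efna2 and -1.71 for Efna4, and it was 1.34 for Sema6d. The effects behind these values were 3.69 in CM and 1.92 in AI for Sema7a, 2.71 and 0.40 for Sema5a, 0.52 and -2.01 for Sema3e, and 0.45 and -1.26 for Efna4. Sema4f had 54 reads in AI and 8 in AI_F9, and its difference was not called without AI_F9 replicate 3 or CM_F9 replicate 1 (-1.82 and -2.19), and became -3.13 without AI_F9 replicate 1.

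Among receptors, the difference was -2.38 for Plxnb1, -2.02 for Plxnc1, -1.62 for Epha2, -2.33 for Epha5, -1.79 for Ephb6, -3.14 for Robo4 and -1.63 for Unc5c, and it was 1.10 for Epha1. Epha1 was not called with library totals (0.83), without AI replicate 2 or without AI_F9 replicate 3, and it overlaps Zyx on the opposite strand, so its reads are uncertain. The fitted difference of Ephb1 was -5.43, which is no bound because AI_F9 held 0 reads, and its call was lost without CM_F9 replicate 2.

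The log2 effect in OI minus that in CM was 1.17 for Plxna4, with effects of -0.79 in CM and 0.38 in OI, and -1.70 for Sema3e, with 0.52 in CM and -1.18 in OI.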

How the results depend on the processing

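Of 111 calls of a guidance gene in a comparison, 91 were made under each alternative run, 20 were lost under at least 1, and the direction was reversed in 0. Calls lost were 5 with library totals, 3 with DESeq2, 3 without the filter, 2 with only the groups compared and 2 with the replicate block, and 19 were lost without some library. With the replicate block, Ntn3 in OI against CM was not called, so that 1 guidance gene was higher there in place of 2, and Epha5 with FGF9 in OI was not called. The block ended no other call. With library totals, the guidance genes whose FGF9 effect was lower in AI than in CM numbered 29 in place of 18, and those higher 1 in place of 2, and the median of all genes moved to -0.27. Leaving out 1 replicate at a time gave 1 to 3 genes higher in OI against CM (1 without CM replicate 1 or 2), 1 to 2 higher in the OI minus CM effect (2 without CM replicate 3, CM_F9 replicate 2, OI replicate 3 or OI_F9 replicate 2), 1 to 2 lower in it (2 without OI replicate 3 or OI_F9 replicate 2) and 1 to 3 higher in the AI minus CM effect (1 without AI replicate 2 or AI_F9 replicate 3). The cause was not tested. Genes with few reads (Epha5, Ephb1, Robo3, Sema4f, Unc5d) limit what this depth can show.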
